A study of Mus musculus with 21 samples.

Results

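Microglia identity genes are genes by which the resident macrophages of the brain are recognised, and 51 of them were chosen by name, by a rule that uses no measured value, although earlier results of these data were known when they were chosen. They comprise surface receptors, signalling proteins and transcription factors of resting microglia together with genes that microglia share with other myeloid cells. Of the 51, 50 were found among the 16318 genes of the deposited table, and the remaining gene, Trem3, was not analysed here. Whole-brain RNA had been sequenced, 1 library per mouse, from 21 SAMP8 mice, an inbred strain that ages early and is used as a model of sporadic Alzheimer's disease without an added transgene. HsTX1[R14A], a scorpion toxin analogue that blocks the potassium channel Kv1.3, was given subcutaneously at 1 mg/kg every other day to 9 mice (3 females and 6 males), and phosphate-buffered saline (PBS) to 12 mice (6 females and 6 males). Dosing began at 4 months of age and lasted 8 weeks, and brains were taken at 6 months. All groups were SAMP8, so no mouse of a normally ageing strain was compared.

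Microglia arise from yolk sac progenitors and depend on signals through the receptor tyrosine kinase CSF1R. In the healthy brain they keep a surveying state that is maintained by neuronal fractalkine and by transforming growth factor beta, and in this state they express P2ry12, Tmem119, Cx3cr1 and Sall1. The transcription factor PU.1, encoded by Spi1, is needed for the myeloid lineage and binds the regulatory regions of many of these genes. Receptors that carry an ITAM adaptor, such as TYROBP or the Fc receptor gamma chain, and Toll-like receptors then allow microglia to respond to debris, antibodies and microbes.

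Total counts ranged from 14917174 to 47613792 per library, and 49 of the 50 members had at least 10 counts in every mouse. The exception was Cybb, whose lowest count was 3. Xist was at least 261 CPM (TMM-scaled counts relative to the library total) in every female and at most 3.39 CPM in every male. Libraries also differed in how their counts depended on transcript length. The slope of a library, obtained by regressing log2 CPM centred on the 21 mice on log2 transcript length, averaged −0.0764 ± 0.161 (SD, n = 12) under PBS and 0.102 ± 0.119 (SD, n = 9) under HsTX1[R14A]. A negative slope means relatively more reads from short transcripts. The column headers carried 2 forms of library name, with SAMP8 heading 15 libraries (10 PBS, 5 HsTX1[R14A]) and SAMP heading 6 (2 PBS, 4 HsTX1[R14A]). What the name form stands for is not given in the sources used here.

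Because many of these genes are regarded as PU.1 targets, the RefSeq promoters (GRCm38.p6, 250 bases before to 50 after the start) were searched on both strands for the PU.1 core letters GAGGAAG. Windows were found for 34 members. The letters were present in 16 of their 42 windows (38.1%), against 13.6% of all 32851 windows of the same length. By gene, 4 of the 12 matched members that fell with treatment and 10 of the 22 that were not called held the letters. The 250 bases before the start follow, 5′ to 3′ on the strand of the gene, for the members with the smallest treatment p that held the letters there. Of these, Fcgr3 and Fcgr1 fell and Cd37 was not called. Capitals mark the letters, which in all 3 read as the reverse complement CTTCCTC.
Fcgr3 (chr1:171059395-171059644, minus strand): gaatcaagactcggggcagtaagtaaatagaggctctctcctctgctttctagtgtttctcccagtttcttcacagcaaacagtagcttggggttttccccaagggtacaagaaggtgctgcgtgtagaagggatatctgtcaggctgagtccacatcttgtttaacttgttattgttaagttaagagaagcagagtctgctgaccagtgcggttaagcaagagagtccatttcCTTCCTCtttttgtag
Fcgr1 (chr3:96293970-96294219, minus strand): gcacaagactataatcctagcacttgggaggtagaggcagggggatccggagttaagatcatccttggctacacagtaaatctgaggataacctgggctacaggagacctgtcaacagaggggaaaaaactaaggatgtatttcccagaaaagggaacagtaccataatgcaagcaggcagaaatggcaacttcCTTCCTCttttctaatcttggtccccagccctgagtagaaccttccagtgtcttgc
Cd37 (chr7:45238840-45239089, minus strand): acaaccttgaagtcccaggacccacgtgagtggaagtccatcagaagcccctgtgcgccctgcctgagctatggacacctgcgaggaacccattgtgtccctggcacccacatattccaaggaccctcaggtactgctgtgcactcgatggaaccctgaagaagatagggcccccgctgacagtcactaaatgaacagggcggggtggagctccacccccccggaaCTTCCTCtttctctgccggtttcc
The letters began 16 bases before the RefSeq start in Fcgr3, 56 in Fcgr1 and 24 in Cd37. The Fcgr3 window lies well inside the GENCODE gene (chr1:171051174-171064935), so its start is not the gene's outermost one. The Cd37 window also lies within its gene (chr7:45233632-45239115), near the upstream end. Only the Fcgr1 window lies outside its gene (chr3:96282909-96293969). A match describes the sequence only and does not show binding.

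Whether the treatment was accompanied by a change in microglial transcripts was asked by comparing HsTX1[R14A] with PBS in all 21 mice, with sex in the model. Of the 50 members, 19 fell, none rose and 31 were not called at an adjusted p of at most 0.05 (edgeR's quasi-likelihood test, Benjamini-Hochberg over 16303 genes). The 19 were P2ry12, P2ry13, Gpr34, Siglech, Spi1, Tyrobp, Fcer1g, Fcgr1, Fcgr3, Tlr3, Tlr7, Cd14, Ly86, Aif1, Lsp1, Cd53, Cd68, Cd86 and Cyba. Among all genes, 16.1% were called lower and 15.5% higher. At an unadjusted p under 0.05, 22 members were lower and 1, Sall1, was higher (limma/voom gave 21 and 1, and so did DESeq2, and each called none higher). Of all 16303 genes, 7562 had an unadjusted p under 0.05 in either direction, a share near that of the members. The median log2 fold change of the members was −0.20, against −0.01 over all genes. Of the 50 values 39 were below 0, against 8376 of all 16303 genes. The falls of the 19 members ranged from 12.3% to 40.2%. Of the 19, 10 had a log2 fold change of −0.50 or less, and all 19 were below 0 in females and in males. In each of them 7 to 9 of the 9 HsTX1[R14A] mice lay below the PBS median, yet the 2 groups overlapped in all 19. The 19 were selected as lower in these same mice, so these counts and signs describe the selection and add no separate evidence.

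In whole-brain RNA, fewer microglia and less RNA per microglia cannot be told apart. The length slope and the name form both moved with the treatment. With the library's length slope added to the model, 0 members were called (12 were lower at an unadjusted p under 0.05, smallest adjusted p = 0.284), and 0 of all genes were. In either direction, 1865 of all 16303 genes had an unadjusted p under 0.05. All 19 log2 fold changes stayed below 0, with a median of −0.21 in place of −0.52. Below 0 were then 46 of the 50 members, a count that includes the 19 selected as lower in the same mice. Of the 31 members not called, 27 were below 0 with the slope and 20 without it. The share of all genes below 0 in that model is not given here, and their median was −0.02. Within the 15 mice of the SAMP8 name form, 0 members were called, 18 were lower at an unadjusted p under 0.05 and the median of the 19 was −0.52 (smallest adjusted p of a member 0.0568). Here 0 of all genes were called, and 5797 of 16305 had an unadjusted p under 0.05, a share near that of the members. In the 6 mice of the SAMP form, 0 were called, 2 were lower at an unadjusted p under 0.05 and the median was −0.27. Among all 16170 genes of that fit, 0 were called and 532 had an unadjusted p under 0.05. With the name form as covariate in all 21 mice, 13 members were called lower (6.28% of all genes) and the median of the 19 was −0.48. With a trend on length and GC content removed from each library, 11 members were called lower (6.38% of all genes). The length slope and the treatment moved together, and their parts cannot be told apart.

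**Figure D1:**
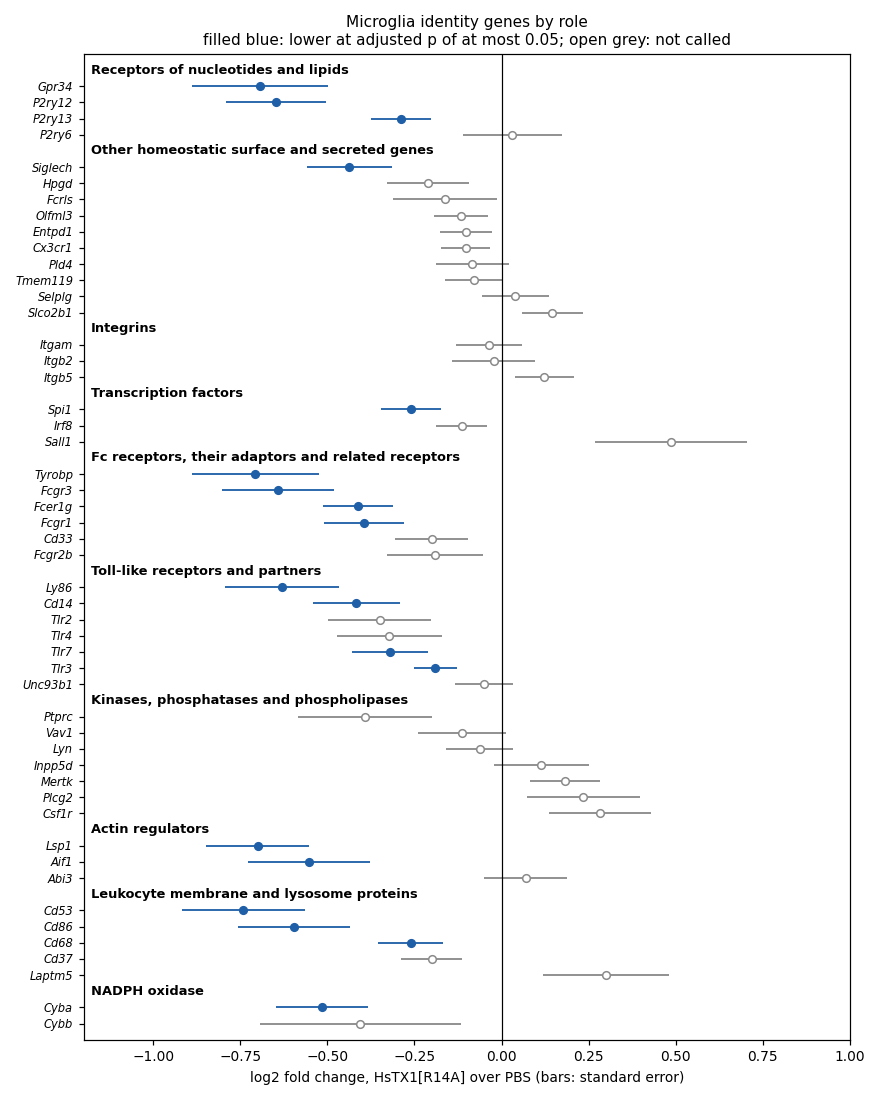
Treatment difference (log2 fold change, HsTX1[R14A] relative to PBS, horizontal axis) of the 50 members grouped by role, with standard errors as bars, from edgeR with sex in the model. Filled blue points are the 19 members called lower and open grey points the 31 not called. The called members lie between −0.74 for Cd53 and −0.19 for Tlr3, and the highest value, 0.49 for Sall1, was not called.

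The counts of falls in each role group below are to be read against the 16.1% of all genes called lower. Counts of values below 0 are to be read against 8376 of all 16303 genes. The purinergic and lipid receptors comprised 4 members, of which 3 fell. P2ry12 (chr3:59216272-59262871, GRCm38), the ADP receptor that directs microglial processes toward injury, ranged from 78.2 to 184 CPM with a median of 117 in PBS mice and from 56.7 to 108 with a median of 73.8 in HsTX1[R14A] mice. All 9 treated mice lay below the PBS median and 6 of them below the lowest PBS mouse. Its log2 fold change was −0.65 (SE 0.14, adjusted p = 0.0151), and it was also the most abundant member per length of transcript, at 42.5 CPM per kilobase over all mice. Its neighbour on chromosome 3, P2ry13, another ADP receptor, fell with a log2 fold change of −0.29 (SE 0.09, adjusted p = 0.0222). Gpr34, a receptor for lysophosphatidylserine, fell with −0.69 (SE 0.20, adjusted p = 0.0201), a value that was −0.10 (adjusted p = 0.711) with the length slope in the model and −0.33 (adjusted p = 0.0769) with the length and GC trend removed. P2ry6, the UDP receptor linked to phagocytosis, was not called (0.03, SE 0.14), with medians of 2.24 and 2.25 CPM.

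Of the 10 other homeostatic surface and secreted genes, Siglech alone fell and 9 were not called, a share no higher than the 16.1% of all genes. Siglech, a sialic acid-binding lectin, was between 12.5 and 22.1 CPM in PBS mice (median 15.1) and between 8.76 and 16.7 CPM in HsTX1[R14A] mice (median 11.3). Its log2 fold change was −0.44 (SE 0.12, adjusted p = 0.0191), and 7 of the 9 treated mice were below the lowest PBS mouse while the other two lay within the PBS range. Tmem119, a membrane protein widely used to separate microglia from blood-derived macrophages, ranged from 14.1 to 20.5 CPM (median 15.8) under PBS and from 12.1 to 19.2 CPM (median 14.6) under HsTX1[R14A]. The groups overlapped almost fully, with a log2 fold change of −0.08 (SE 0.08, adjusted p = 0.473). Cx3cr1, the fractalkine receptor, ranged from 47.4 to 68.4 CPM (median 61.9) and from 48.4 to 67.7 CPM (median 57.8), respectively. Although 8 of 9 treated mice were below the PBS median, its log2 fold change of −0.10 (SE 0.07) was not called (adjusted p = 0.245). The organic anion transporter gene Slco2b1 had a log2 fold change of 0.15 (SE 0.09, adjusted p = 0.195), with a range of 9.54 to 15.6 CPM (median 13.4) in PBS mice and 11.1 to 17.6 CPM (median 14.3) in HsTX1[R14A] mice. The remaining 6, Fcrls, Olfml3, Selplg, Entpd1, Hpgd and Pld4, had values between −0.21 and 0.04.

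None of the 3 integrin genes was called. Itgam, which encodes the CD11b chain of complement receptor 3, ranged from 13 to 23 CPM (median 19.5) in PBS mice and from 12.8 to 23.9 CPM (median 18.3) in treated mice. The 2 ranges were nearly the same, and the log2 fold change was −0.04 (SE 0.10, adjusted p = 0.785). Of the 50-base stretches of Itgam transcripts, 72.4% also occur in the overlapping gene Gm49368 on the same strand, so counts of Itgam depend on how such reads were divided. Its partner Itgb2 was at −0.02 (SE 0.12). Itgb5, the beta 5 integrin chain, ranged from 31.2 to 48.9 CPM (median 41.8) and from 35.5 to 50.4 CPM (median 43.7), with a log2 fold change of 0.12 (SE 0.09, adjusted p = 0.254).

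Among the 3 transcription factor genes, Spi1 fell, and Irf8 and Sall1 were not called. Spi1, which encodes PU.1, ranged from 3.69 to 4.94 CPM (median 4.40) in PBS mice and from 2.98 to 4.60 CPM (median 3.75) in HsTX1[R14A] mice. Its log2 fold change was −0.26 (SE 0.09, adjusted p = 0.0293), with 8 of the 9 treated mice below the PBS median. Irf8, an interferon regulatory factor needed for microglial development, had a log2 fold change of −0.11 (SE 0.07, adjusted p = 0.209) and the second smallest spread of the members. Sall1, a zinc finger repressor that maintains microglial identity and in the brain is also found in neural progenitors, ranged from 8.37 to 33.0 CPM (median 21.9) and from 15.2 to 45.6 CPM (median 29.9), respectively. Of the treated mice, 6 were above the PBS median, and the log2 fold change of 0.49 (SE 0.22) did not pass the threshold (adjusted p = 0.0885). With the length slope in the model the value of Sall1 was −0.18 (SE 0.14).

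Fc receptors and their adaptors gave 4 falls among 6 members, and all 6 values were negative. Tyrobp, which encodes the ITAM adaptor DAP12 used by TREM2 and other receptors, ranged from 10.1 to 29.7 CPM (median 17.6) in PBS mice and from 7.55 to 17.3 CPM (median 10.4) in HsTX1[R14A] mice. All 9 treated mice were below the PBS median, and the log2 fold change was −0.71 (SE 0.18, adjusted p = 0.0172). Fcer1g, the common gamma chain of Fc receptors, ranged from 7.94 to 13.2 CPM (median 10.5) and from 6.50 to 9.13 CPM (median 7.74). Here 8 of the 12 PBS mice exceeded the highest treated mouse, and the log2 fold change was −0.41 (SE 0.10, adjusted p = 0.0163). With the length slope in the model it was −0.27 (adjusted p = 0.376), and with the length and GC trend removed it was −0.003 (SE 0.11, adjusted p = 0.987). Fcgr3, a low-affinity activating IgG receptor, ranged from 12.8 to 30.5 CPM (median 19.9) and from 10.2 to 21.1 CPM (median 12.8), with a log2 fold change of −0.64 (SE 0.16, adjusted p = 0.0169). The high-affinity receptor gene Fcgr1 fell with −0.39 (SE 0.12, adjusted p = 0.0219). The inhibitory receptor gene Fcgr2b (−0.19, SE 0.14) and Cd33, a sialic acid receptor (−0.20, SE 0.10), were not called. Fcgr3 shares 12.8% of its 50-base stretches with Fcgr2b, so a part of their reads could not be assigned to one gene alone.

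All 7 Toll-like receptor genes and partners had values below 0, and 4 of them fell. Ly86, which encodes the MD-1 partner of the receptor RP105, ranged from 10.7 to 28.6 CPM (median 18.2) in PBS mice and from 7.66 to 19.9 CPM (median 12.3) in HsTX1[R14A] mice. In 8 of 9 treated mice it was below the PBS median, with a log2 fold change of −0.63 (SE 0.16, adjusted p = 0.0174). Cd14, the lipopolysaccharide co-receptor, fell with −0.42 (SE 0.12, adjusted p = 0.0226), and Tlr7, an endosomal sensor of single-stranded RNA, with −0.32 (SE 0.11, adjusted p = 0.0333). Tlr3, the sensor of double-stranded RNA, fell least, with −0.19 (SE 0.06, adjusted p = 0.0286), although all 9 treated mice (14.2 to 16.9 CPM, median 15.4) were below the PBS median (15.1 to 20.7 CPM, median 17.4). Its spread within groups was the smallest of the members. Tlr2 (−0.35, SE 0.15, adjusted p = 0.0698) and Tlr4 (−0.32, SE 0.15, adjusted p = 0.0973), the surface receptors for bacterial lipoproteins and lipopolysaccharide, were not called, and neither was Unc93b1, the chaperone of endosomal Toll-like receptors (−0.05, SE 0.08).

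None of the 7 kinase, phosphatase and phospholipase genes was called, and their median log2 fold change was 0.11. Csf1r, the receptor on which microglial survival depends, ranged from 32.5 to 81.1 CPM (median 59.2) in PBS mice and from 44.9 to 83.6 CPM (median 69.6) in treated mice. The lowest PBS mouse was female 103, 8 of the 9 treated mice were above the PBS median, and the log2 fold change was 0.28 (SE 0.15, adjusted p = 0.134). Mertk, a receptor kinase for the uptake of dying cells, ranged from 19 to 36.1 CPM (median 27.1) and from 26 to 38.2 CPM (median 30.2), with a log2 fold change of 0.18 (SE 0.10, adjusted p = 0.156). Plcg2, a phospholipase downstream of TREM2, was at 1.98 to 5.27 CPM (median 4.08) and at 2.93 to 5.73 CPM (median 4.09), with 0.23 (SE 0.16, adjusted p = 0.257). The lipid phosphatase gene Inpp5d, which counters ITAM signalling, was at 5.32 to 14.6 CPM (median 11.9) and at 9.48 to 14.4 CPM (median 12.2), with 0.11 (SE 0.14, adjusted p = 0.524). The medians of both genes were almost equal between treatments. Ptprc, which encodes the leukocyte phosphatase CD45, had −0.39 (SE 0.19, adjusted p = 0.114), with its highest value, 10.4 CPM, in PBS male 102. Lyn and Vav1 had values of −0.06 and −0.11.

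Of the 3 actin regulators, Aif1 and Lsp1 fell. Aif1, which encodes the microglial stain IBA1, ranged from 6.34 to 16.5 CPM (median 9.01) in PBS mice and from 4.86 to 11.4 CPM (median 6.92) in HsTX1[R14A] mice. In 8 of the 9 treated mice it was below the PBS median, and the log2 fold change was −0.55 (SE 0.17, adjusted p = 0.0272). With the length slope in the model this value was −0.01 (SE 0.08), the smallest of the 19. Lsp1, a leukocyte actin-binding protein, ranged from 4.59 to 9.91 CPM (median 6.55) and from 3.32 to 5.58 CPM (median 4.09). In 9 of the 12 PBS mice it exceeded the highest treated mouse. Its log2 fold change was −0.70 (SE 0.15, adjusted p = 0.0151), and −0.42 (SE 0.15, adjusted p = 0.33) with the length slope in the model. Abi3, a regulator of actin branching, was not called (0.07, SE 0.12). Its exons overlap those of Zfp652, Phospho1 and Gngt2 on the opposite strand, those of Csf1r overlap Hmgxb3 and those of Slco2b1 overlap Gm15635. The labels and the methods name different library kits, so whether strand was used in counting is not certain, and without it the reads of such pairs cannot be told apart.

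Among the 5 leukocyte membrane and lysosome genes, Cd53, Cd68 and Cd86 fell. Cd53, a tetraspanin of leukocytes, had the lowest log2 fold change of all members, −0.74 (SE 0.18, adjusted p = 0.0161), and ranged from 8.88 to 26 CPM (median 14.3) in PBS mice and from 6.39 to 16.4 CPM (median 9.12) in HsTX1[R14A] mice. The highest PBS value was that of male 90 and the highest treated value that of male 93. Cd86, a ligand for T cell co-stimulation, fell with −0.60 (SE 0.16, adjusted p = 0.0184), and 9 of 12 PBS mice exceeded the highest treated mouse. The lysosomal glycoprotein gene Cd68 fell with −0.26 (SE 0.09, adjusted p = 0.0407), and its value was −0.03 (adjusted p = 0.895) with the length and GC trend removed. Laptm5, another lysosomal membrane protein of blood cells, ranged from 15.3 to 54.4 CPM (median 37.6) and from 32 to 55.2 CPM (median 41.9), with a log2 fold change of 0.30 (SE 0.18, adjusted p = 0.194). Cd37, a tetraspanin, was at −0.20 (SE 0.09, adjusted p = 0.0804).

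The NADPH oxidase was represented by its 2 membrane subunits. Cyba, which encodes p22phox, ranged from 4.99 to 10 CPM (median 5.80) in PBS mice and from 3.13 to 6.12 CPM (median 4.35) in HsTX1[R14A] mice. Of the treated mice 8 were below the lowest PBS mouse and the remaining one, male 93, was above the PBS median. The log2 fold change was −0.52 (SE 0.13, adjusted p = 0.0171). Cybb, the catalytic subunit gp91phox, was the least abundant member at 0.14 CPM per kilobase, and its value of −0.41 (SE 0.29, adjusted p = 0.269) was not called.

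**Figure D2:**
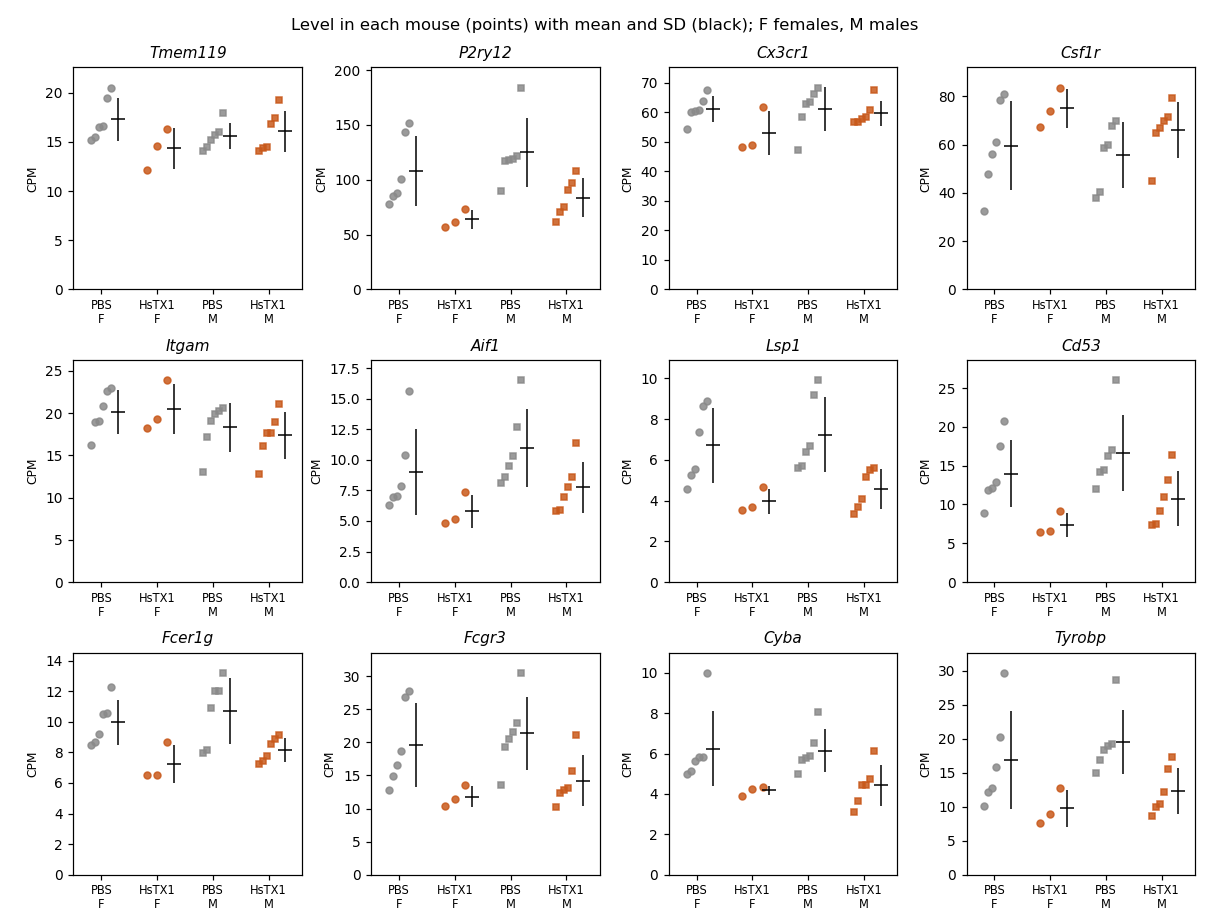
CPM of 12 members in each mouse (vertical axes start at 0), by treatment and sex (F females, M males), with the mean and SD of each group in black. In P2ry12 all HsTX1[R14A] mice lie below the PBS median of 117 CPM, whereas in Tmem119, Itgam and Csf1r the treatments overlap widely.

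The treatment effect was also estimated within each sex from a model of the 4 groups. In females 0 members were called, as were 0.0% of all genes, and 19 members had an unadjusted p under 0.05, all lower, against 27.8% of all genes in either direction (smallest adjusted p of a member 0.15). In males 0 members were called, again as 0.0% of all genes, and 18 had an unadjusted p under 0.05, all lower, against 24% of all genes (smallest adjusted p 0.173). DESeq2 called 0 members in each sex, with smallest adjusted p of 0.0743 in females and 0.0578 in males, and limma/voom also called 0. Over all genes DESeq2 called 145 in females and 212 in males, and limma/voom 0 in each. The medians of the 50 log2 fold changes were −0.20 in females and −0.19 in males.

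For the difference of the treatment effect between sexes, 0 members were called (0.0% of all genes) and 1 had an unadjusted p under 0.05, against 1.66% of all genes. This was Tlr2, with medians of 1.94 CPM in PBS and 1.70 CPM in HsTX1[R14A] females, and of 1.95 and 1.19 CPM in males. Its effect was lower in males by 0.60 on the log2 scale (SE 0.28, unadjusted p = 0.0407, adjusted p = 1). Cybb followed, with medians of 0.612 and 0.849 CPM in females and of 0.824 and 0.506 CPM in males (difference of males minus females −1.10, SE 0.55, unadjusted p = 0.0588). In Tmem119 the medians were 16.6 and 14.6 CPM in females and 15.4 and 15.7 CPM in males (difference 0.31, SE 0.16, unadjusted p = 0.0675). None of these 3 differences passed the adjustment, and limma/voom and DESeq2 called none either.

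Between males and females, with treatment in the model, 0 members were called, against 0.0552% of all genes (9 genes), and 2 had an unadjusted p under 0.05, against 10.8%. Hpgd, which degrades prostaglandins, had medians of 3.28 CPM in PBS females and 3.73 CPM in PBS males, and of 2.84 and 3.27 CPM in the treated mice. It was higher in males by 0.30 on the log2 scale (SE 0.12, unadjusted p = 0.0174, adjusted p = 0.446). Cd53 was higher in males by 0.37 (SE 0.18, unadjusted p = 0.048) and Siglech by 0.25 (SE 0.12, unadjusted p = 0.0508). The groups of the sexes overlapped in all 3 genes.

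Summed over the 50 members, the level was 670 to 851 CPM (median 772) in PBS mice and 626 to 791 CPM (median 695) in HsTX1[R14A] mice. The treated sums were lower on the whole but overlapped with those of PBS mice. Per kilobase of transcript, P2ry12 was followed by Tyrobp (25.6 CPM per kilobase), Laptm5 (14.8), Fcer1g (13.6), Csf1r (13.3), Cx3cr1 (13.3) and Fcgr3 (13), and Cybb, Tlr4 (0.41), Tlr2 (0.57) and Cd33 (0.575) stood at the lower end. The SD of log2 CPM within groups had a median of 0.272 over the members and of 0.285 over all genes. It was smallest in Tlr3 (0.122), Irf8 (0.128) and Cx3cr1 (0.146) and largest in Laptm5 (0.477), Sall1 (0.57) and Cybb (0.613).

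The members that fell had shorter transcripts than those that were not called, with medians of 2088 and 3544 bases for the longest annotated transcript. Over the 50 members, Pearson's r between log2 fold change and log2 length was 0.531, and over 16224 genes it was 0.496. These are correlations across genes of the same libraries, which share depth and composition, and genes are not independent replicates. Of the 10 members under 2000 bases, 8 were called lower, against 30.1% of all genes of this length. Between 2000 and 3000 bases it was 9 of 18 members, against 19.5%. From 3000 to 4000 bases 1 of 6 was called lower, against 13.6%, and from 4000 bases 1 of 16 (Tlr3), against 6.68%. The median log2 fold change of the members was below that of all genes in each of the 4 length classes, at −0.47, −0.23, −0.15 and −0.07 from short to long, against −0.27, −0.08, 0.01 and 0.17.

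**Figure D3:**
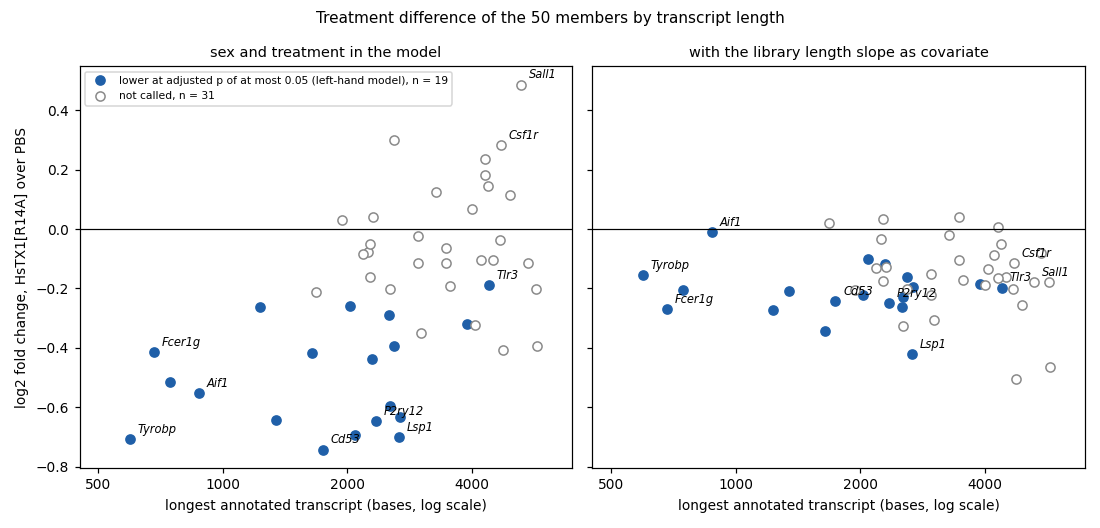
Treatment difference (log2 fold change, HsTX1[R14A] relative to PBS, vertical axis) of the 50 members against the longest annotated transcript in bases (log scale), from the model with sex (left) and after adding the library length slope (right). Blue points are the 19 members called lower on the left. On the left the values rise with length and Csf1r and Sall1 lie above 0, and on the right 46 of the 50 are below 0 and none was called.

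When a loess trend on length and GC content was instead taken out of every library, 11 members were called lower, against 6.38% of all genes. These 11 comprised 8 of the 19, namely P2ry12, Spi1, Tyrobp, Fcgr1, Fcgr3, Ly86, Lsp1 and Cd53, together with Cd37, Cx3cr1 and Olfml3. For Cx3cr1 the log2 fold change was then −0.26 (SE 0.07, adjusted p = 0.0267), against −0.10 without this step. The median log2 fold change of the 50 members was −0.17 with the trend removed and −0.18 with the length slope in the model, against −0.01 and −0.02 over all genes.

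The mean level of the 19 called members, as log2 CPM centred on the 21 mice, was 0.195 ± 0.251 (SD, n = 12) under PBS and −0.26 ± 0.227 (SD, n = 9) under HsTX1[R14A]. A lower treated mean follows from the selection of the 19 in these same mice and is no separate result. Its highest values were 0.654 in PBS male 90 and 0.524 in PBS female 103, the libraries with the lowest length slopes (−0.338 and −0.384). Of the treated mice, male 93 stood highest at 0.132 and had the lowest treated slope, −0.142. Of the PBS mice, female 84 stood lowest at −0.214 and had the highest PBS slope, 0.147. For the 31 members not called, the mean level was 0.0157 ± 0.179 (SD, n = 12) and −0.021 ± 0.102 (SD, n = 9), and PBS female 103 (−0.322) and PBS male 101 (−0.308) were lowest. Without PBS female 103 and PBS male 90, an alternative chosen after the data had been seen, 14 members were called lower, against 7.36% of all genes. The 5 that were lost were Spi1, Tlr3, Tlr7, Aif1 and Cd68.

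**Figure D4:**
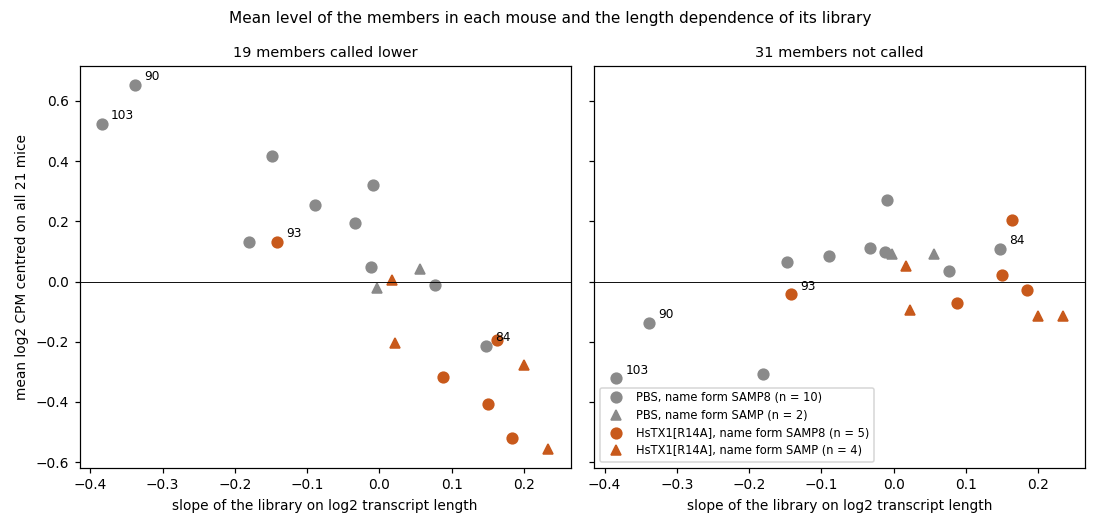
Mean centred log2 CPM (vertical axis) of the 19 members called lower (left) and the 31 not called (right) in each mouse, against the slope of its library on log2 transcript length. Grey points are PBS and orange points HsTX1[R14A] mice, with circles for the SAMP8 and triangles for the SAMP name form. On the left PBS mice 90 and 103, with the lowest slopes, lie at 0.654 and 0.524, and the treated mouse 93 at 0.132.

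Counts of called members also depended on the mice and the model. With one mouse left out at a time, 14 to 21 members were called lower, and all 19 log2 fold changes stayed below 0 each time. The share of all genes called lower ranged from 6.32% to 20.5% over the same fits. The count was 14 without PBS male 90 (6.32% of all genes) and 14 without HsTX1[R14A] female 98 (9.25%). It was 21 without HsTX1[R14A] male 93 (20.5%), where Sall1 was also called higher. Whichever mouse was left out, 14 of the 19 were called, while Cd68 lost its call in 12 of the 21 fits, Tlr7 in 5, Aif1 in 4, Spi1 in 4 and Tlr3 in 3. Among the fits in which Aif1 lost its call were those without PBS male 90 and without HsTX1[R14A] female 98. limma/voom, DESeq2 and another scaling each called 19, the same genes (15.7%, 18.2% and 15.4% of all genes). With the name form as covariate the count was 13 (6.28% of all genes), and without the sex term it was 16 (9.54%).

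**Figure D5:**
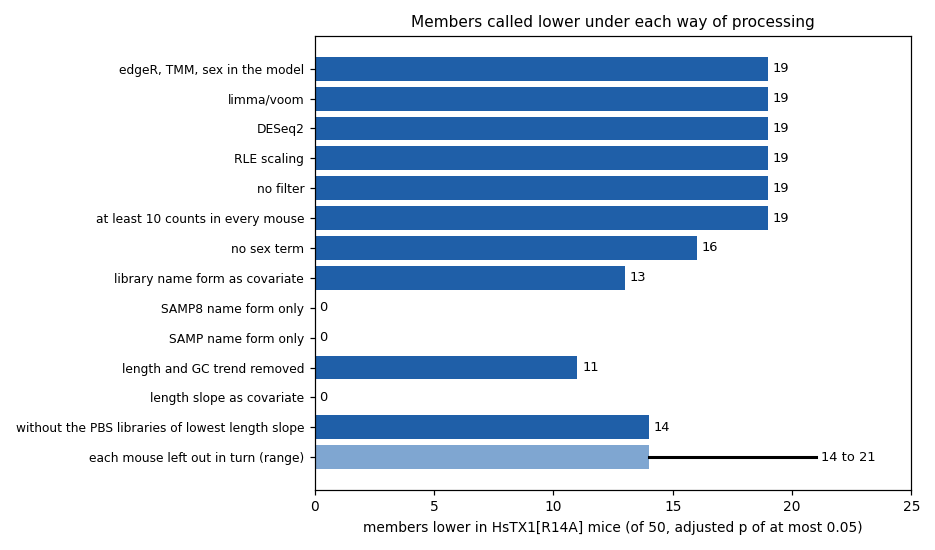
Number of the 50 members called lower in HsTX1[R14A] mice (horizontal axis, adjusted p of at most 0.05) under each way of processing, with the range over leaving out each mouse at the bottom. The count is 19 in 6 of the settings and 0 where the length slope is a covariate or a single name form is used.

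Other genes of the microglial programme were examined from lists, whose counts are to be read against the 15.5% of all genes called higher and the 16.1% called lower. Of 12 ligands, receptors and mediators of CSF1R, CX3CR1 and transforming growth factor beta signalling, 3 rose and 1 fell. Cx3cl1, the neuronal fractalkine that binds CX3CR1, rose from 410 ± 161 CPM (SD, n = 12) under PBS to 603 ± 156 CPM (SD, n = 9) under HsTX1[R14A] (log2 fold change 0.63, SE 0.21, adjusted p = 0.0305). Smad3, which transmits the growth factor's signal, rose with 0.64 (SE 0.18, adjusted p = 0.0205), and its receptor gene Tgfbr1 fell with −0.28 (SE 0.07, adjusted p = 0.0154). Of 14 further transcription factor genes of microglia, 3 rose and 1 fell. The rising genes included Bhlhe41 (0.31, SE 0.10, adjusted p = 0.0254) and Bhlhe40 (0.49, SE 0.16, adjusted p = 0.0272), and the falling gene was Ikzf1 (−0.31, SE 0.10, adjusted p = 0.0299). With the length slope in the model the 3 transcription factor genes were at 0.08, 0.07 and −0.26, Cx3cl1 was at 0.01 (adjusted p = 0.976), Smad3 at 0.07 (adjusted p = 0.758) and Tgfbr1 at −0.21, and none was called. In lists of 12 and 14 genes, 3 rises and 1 fall differ from the shares of all genes by few genes. They are not read as a result about either list.

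Among 30 other genes of microglia, 13 fell and none rose, with a median log2 fold change of −0.28. C1qb, a chain of the complement starter C1q, fell from 35.5 ± 4.5 CPM (SD, n = 12) to 26.9 ± 4.57 CPM (SD, n = 9), with −0.43 (SE 0.09, adjusted p = 0.0151). The collagen receptor gene Lair1 fell with −0.47 (SE 0.10, adjusted p = 0.0151). Neither C1qb (−0.28, adjusted p = 0.296) nor Lair1 (−0.26, adjusted p = 0.305) was called with the length slope in the model. Of 22 genes of activated or disease-associated microglia, 10 fell and 2 rose. Cd9 (−0.48, SE 0.11, adjusted p = 0.0151) and the ferritin gene Fth1 (−0.71, SE 0.15, adjusted p = 0.0151) fell, and Timp2 (0.45, SE 0.14, adjusted p = 0.0279) and Itgax (0.44, SE 0.15, adjusted p = 0.0327) rose. Several genes of this list, Fth1 among them, are also expressed outside microglia. None of these 4 was called with the length slope in the model, where Cd9 was at −0.26 (adjusted p = 0.344) and Fth1 at −0.27 (adjusted p = 0.348). Timp2 was then at 0.19 (adjusted p = 0.615) and Itgax at 0.20 (adjusted p = 0.722).

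Many members are shared with macrophages at the borders of the brain and with blood leukocytes. Of 10 genes of border macrophages and monocytes, 4 fell and none rose, including the mannose receptor gene Mrc1 (−0.78, SE 0.22, adjusted p = 0.0193) and F13a1 (−0.68, SE 0.24, adjusted p = 0.0368). The median log2 fold change of these 10 was −0.51, and their summed level was 13.9 to 30.4 CPM in PBS mice and 12.3 to 25.1 CPM in HsTX1[R14A] mice. Neither Mrc1 (−0.67, adjusted p = 0.35) nor F13a1 (−0.48, adjusted p = 0.511) was called with the length slope in the model. Neutrophils were represented by 1 of 11 listed genes and lymphocytes by 2 of 12, none of them called, and the defining genes S100a8, Ly6g and Cd3e were not analysed here. The 5 red blood cell genes were not called. Of the genes of other brain cells, 4 of 10 neuronal genes rose, 6 of 10 oligodendrocyte genes fell, 1 rose and 3 fell of 10 astrocyte genes, and 2 of 10 endothelial genes rose. The rises of astrocyte and endothelial genes were near the 15.5% of all genes. The part of other cell types in the values of the members was not tested. In this whole-brain RNA Kcna3, which encodes Kv1.3, rose from 4.1 ± 0.813 CPM (SD, n = 12) under PBS to 5.71 ± 1.51 CPM (SD, n = 9) under HsTX1[R14A] (log2 fold change 0.53, SE 0.14, adjusted p = 0.018). With the length slope in the model it was at 0.45 (SE 0.17, adjusted p = 0.344), and in the SAMP8 name form alone at 0.68 (adjusted p = 0.0563), and was not called in either. With the length and GC trend removed it was at 0.47 (adjusted p = 0.0266). Its level in microglia was not measured in these libraries.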

How the data were processed

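Whole-brain RNA of 21 SAMP8 mice was sequenced, 1 library per mouse. According to the methods and labels, the authors aligned reads to GRCm38 with STAR and quantified genes with Salmon, and they deposited estimated counts, not normalized, for 16318 genes. How those genes were selected is not given in the sources used here, and labels and methods name different library kits. The table's fold changes, p-values, FDR and mean expression, which are the authors' own comparison, and 53 other per-sample columns were not used. Counts were rounded to integers (90.5% were already within 0.01 of one). Groups came from the sample titles.

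After filterByExpr, 16303 genes remained, and these were TMM-normalised here and analysed in R 4.3.3 using edgeR 4.0.16 (quasi-likelihood test, Benjamini-Hochberg, FDR threshold 0.05), with sex and treatment in the model or with the 4 groups. The SE is the size of the log2 fold change divided by the square root of F, and log2 CPM carries a prior count of 2. Transcript lengths and shared 50-base stretches came from GENCODE for GRCm38. Alternatives were limma/voom (limma 3.58.1), DESeq2 1.42.0, RLE scaling, other filters, no sex term, name form and length slope as covariates, each name form alone, removal of loess trends (span 0.5) on length and GC content, and each mouse left out.

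Among the members, counts were lowest for Cybb. Across 48 pairs of same-group mice, the mean chi-square per gene was 7.58 to 288, and the differences of every pair exceeded sampling noise. Members and lists were chosen with earlier results of these data known. Per-mouse ranges are given for 6 core genes, the 8 members with the smallest p in each direction and the 3 with the smallest p for interaction and sex. Other members are named within their role group, with ranges added for some after their values were seen, and at most 2 genes per direction are named from other lists.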

Additional observations from a re-analysis of the deposited data

Results flagged for a closer look

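Of 75 sets of values tested for a mouse far from the rest (24 genes and the summed level of the members, each in the 3 groups of 6 mice), 6 had 1 mouse that lay apart by Dixon's criterion, and chance gives about 1 in 20. All 6 involve PBS female 103 or PBS male 90, which also had the lowest length slopes (−0.384 and −0.338), and the part of the slope in these values was not tested. In PBS female 103, Cyba was at 10 CPM where the other females had 4.99 to 5.85 CPM, and Siglech was at 21.6 CPM where they had 12.5 to 15 CPM. In PBS male 90, P2ry12 was at 184 CPM (other males 89.8 to 122 CPM), Cd53 at 26 CPM (12 to 17 CPM), Tyrobp at 28.7 CPM (15 to 19.2 CPM) and Siglech at 22.1 CPM (13.7 to 16.8 CPM). Without both libraries, P2ry12, Cd53, Tyrobp, Siglech and Cyba were still called lower.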

How the results depend on the processing

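Of the 50 members, 19 were called lower with the reported model and 19 with limma/voom, DESeq2, RLE scaling or either other filter. Over these fits 15.4% to 18.9% of all genes were called lower. The count was 0 with the SAMP8 name form alone, 0 with the SAMP form alone and 0 with the length slope as covariate. In each of these fits 0 of all genes were called too. It was 11 with the length and GC trend removed, where 6.38% of all genes were called lower. Leaving out each mouse gave 14 to 21 members lower and 0 to 1 higher (Sall1, without HsTX1[R14A] male 93). Over these fits 6.32% to 20.5% of all genes were called lower. According to the methods, mice were randomised to treatment within cages, but the sample titles do not give the cage. An analysis paired by cage was therefore not possible, and cage is not in the models. Several members above 0 turned negative. With the length slope as covariate the log2 fold changes were −0.11 for Csf1r, −0.18 for Sall1, −0.20 for Laptm5, −0.051 for Slco2b1, −0.019 for Itgb5, −0.17 for Plcg2 and −0.26 for Inpp5d. With the SAMP form alone they were −0.059 for Csf1r, −0.066 for Laptm5, −0.031 for Itgb5 and −0.14 for Inpp5d, and with the trend removed −0.032 for Slco2b1, −0.076 for Itgb5, −0.003 for Plcg2 and −0.17 for Inpp5d. Leaving out each mouse moved Itgam from −0.086 to 0.008, the latter without HsTX1[R14A] male 93. The cause of these changes was not tested. Across 26 named values and 851 alternatives, 796 kept direction and side of the threshold, 37 lost the call, 2 gained one and 16 turned sign. Most of the named values were not called in the reported model and so could not lose a call. Most alternatives left out 1 mouse and shared all other mice, so the 796 is not a measure of how stable the calls are. No member was called within a sex, between sexes or for their difference under any alternative run. Depth limited Cybb, with as few as 3 counts.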
